A study of Arabidopsis thaliana with 44 samples.

Results

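GI and CCL are genes of Arabidopsis thaliana whose transcripts follow the circadian clock, and their messenger RNA was followed here through 22 groups of seedlings ordered by the clock time of sampling. The members were found by joining the probe annotation to the gene table by gene ID. GI (AT1G22770) and CCL (AT3G26740) had 1 probe set each. They are 2 of 13356 named genes tested. The data are log2 expression values from 44 single-colour Affymetrix arrays of whole seedlings, with 2 arrays in each group. Wild type (WT) and atm-1, a mutant named for the DNA damage kinase ATM, received 100 Gy of gamma rays over 15 minutes, 30 Gy of HZE (accelerated iron nuclei) over about 12 minutes, or no radiation.

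Gamma groups were sampled at 10:10 am (1.5 h after irradiation), 11:40 am (3 h), 2:55 pm (6 h) and 8:40 pm (12 h) on day 1, and at 8:40 am on day 2 (24 h). HZE groups were sampled at 2:39 pm (1.5 h), 4:09 pm (3 h) and 7:24 pm (6 h) on day 1, and at 1:09 am (12 h) and 1:09 pm (24 h) on day 2. The 3 h groups are WT only. Unirradiated WT and atm-1 seedlings were taken on both mornings, at 10:45 am (day 1) and at 9:15 am (day 2). Seedlings were 5 days old, except those of the 24 h and day 2 unirradiated groups, which were 6 days old. Plants grew in a 16 h day until irradiation, and the hour of lights-on is not given in the sources used here. RNA on an array came from many pooled plants. Whether the replicates of a group came from different cultures is not stated, so the p-values reflect only the spread between these arrays, which may be technical. HZE was given in 2 runs, and the labels do not say which replicate came from which.

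GI (GIGANTEA) encodes a large plant-specific protein of the evening part of the clock. It stabilises the clock protein ZTL and, with the light-sensing F-box protein FKF1, removes repressors of the flowering gene CO, which links day length to flowering. Its transcript is held down in the morning by CCA1 and LHY, accumulates through the afternoon and falls again at night. CCL (CCR-LIKE) is known as a clock-controlled gene with a short-lived messenger RNA of the DST type, whose stability itself changes with the time of day. Where groups were sampled at different hours, the time of day and the treatment cannot be told apart.

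Array medians ran from log2 5.73 to 5.98, and the replicates of a group correlated at 0.990 to 0.997 across probe sets. None of the 946 array pairs were identical. The mutated gene was not checked here, since 0 probe sets in the annotation used here carry ATM alone. Of the markers listed for green tissue 1 of 4 was measured, RCA (Rubisco activase), at log2 13.5 to 14.2 on single arrays. Of the root markers 2 of 6 were measured, the root hair expansins EXPA7 and EXPA18, at log2 5.01 to 6.36 and 4.42 to 5.98, and of the seed storage markers 0 of 3. Their part in the results below was not tested. In whole seedlings, fewer cells that express a gene and less RNA per cell cannot be told apart.

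GI was high in late afternoon and evening groups and low in the group sampled after midnight. The arrays of WT after gamma read log2 7.92 and 8.07 at 10:10 am, 6.76 and 7.27 at 11:40 am, 8.65 and 8.71 at 2:55 pm, 9.73 and 9.64 at 8:40 pm, and 7.97 and 8.08 at 8:40 am. WT after HZE read log2 8.26 and 8.54 at 2:39 pm, 9.17 and 9.25 at 4:09 pm, 9.75 and 9.60 at 7:24 pm, 6.51 and 6.35 at 1:09 am, and 7.29 and 7.21 at 1:09 pm. The evening arrays of both radiations stood above every other WT array, and the 1:09 am arrays below every other.

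The mutant gave a similar course for GI. After gamma atm-1 read log2 7.55 and 7.62 at 10:10 am, 8.54 and 8.64 at 2:55 pm, 9.04 and 9.21 at 8:40 pm, and 7.92 and 7.91 at 8:40 am. After HZE it read 8.34 and 8.48 at 2:39 pm, 9.69 and 9.52 at 7:24 pm, 6.67 and 6.60 at 1:09 am, and 7.13 and 6.77 at 1:09 pm. Unirradiated seedlings were low for GI on both mornings, at 6.84 and 6.75 (WT, day 1), 6.69 and 6.65 (atm-1, day 1), 6.94 and 6.89 (WT, day 2), and 7.05 and 7.03 (atm-1, day 2). In both genotypes, no unirradiated array overlapped the gamma groups of 10:10 am or 8:40 am, which were sampled within 35 minutes of the controls.

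CCL spanned a far wider range and, unlike GI, was still high at 1:09 am. WT after gamma read log2 5.43 and 5.75 at 10:10 am, 7.57 and 7.44 at 11:40 am, 10.92 and 11.03 at 2:55 pm, 12.39 and 12.33 at 8:40 pm, and 5.64 and 5.89 at 8:40 am. WT after HZE read log2 12.30 and 12.28 at 2:39 pm, 13.09 and 12.93 at 4:09 pm, 12.43 and 12.63 at 7:24 pm, 12.47 and 12.30 at 1:09 am, and 9.85 and 9.79 at 1:09 pm. All WT groups from 2:39 pm to 1:09 am thus lay above all WT morning and midday groups.

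In atm-1, CCL after gamma was log2 6.79 and 6.74 at 10:10 am, 11.12 and 11.21 at 2:55 pm, 12.54 and 12.80 at 8:40 pm, and 6.78 and 6.42 at 8:40 am. After HZE it was 12.66 and 12.53 at 2:39 pm, 12.20 and 12.14 at 7:24 pm, 12.43 and 12.36 at 1:09 am, and 10.61 and 10.28 at 1:09 pm. Unirradiated seedlings stood between these extremes, at 7.36 and 7.60 (WT, day 1), 7.52 and 7.49 (atm-1, day 1), 9.36 and 9.50 (WT, day 2), and 10.05 and 9.97 (atm-1, day 2). The gamma groups of 10:10 am and 8:40 am held the lowest CCL arrays of the series, below every unirradiated array.

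**Figure D1:**
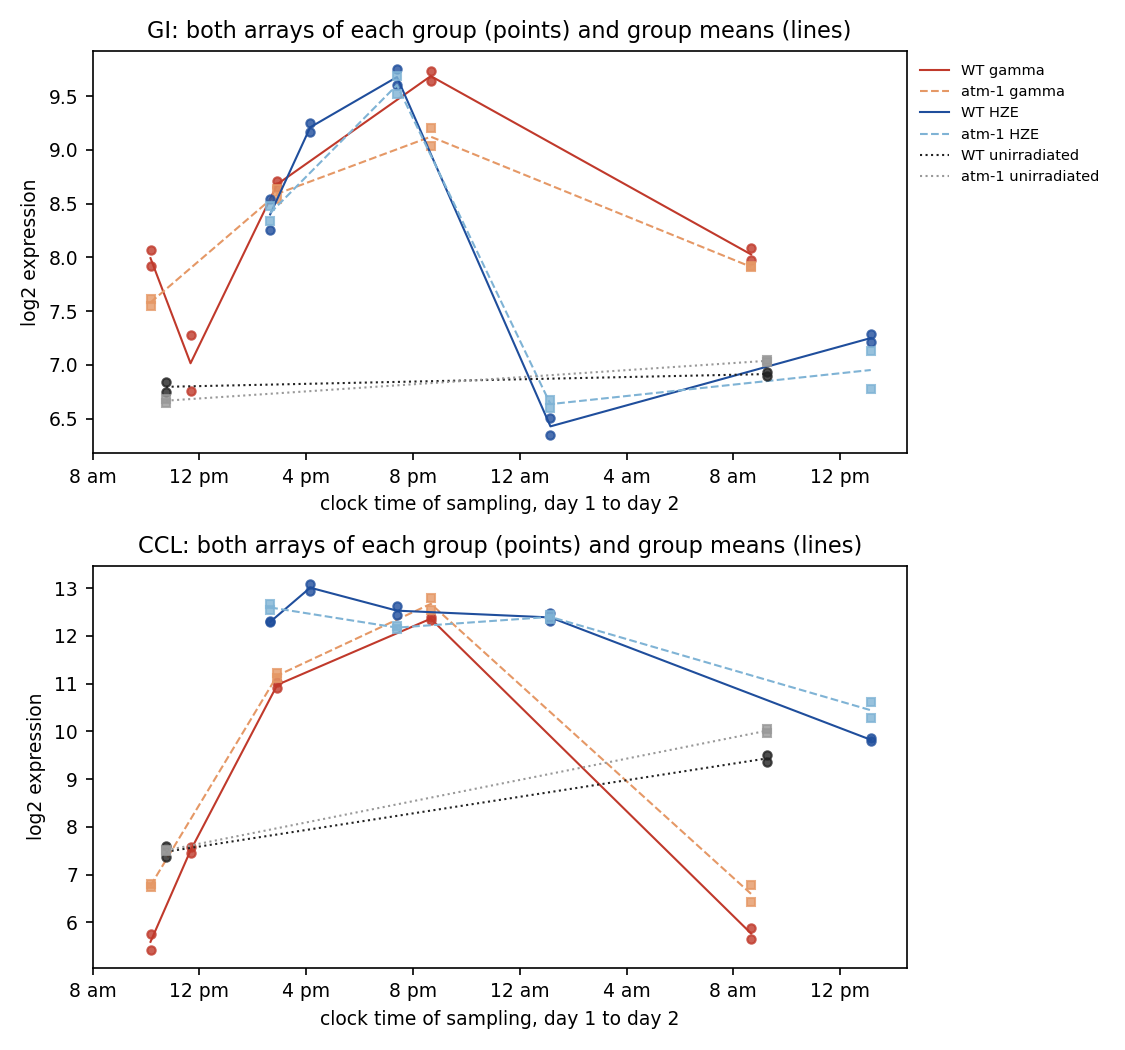
Log2 expression of GI (upper panel) and CCL (lower panel) against the clock time of sampling over both days. Points are single arrays, lines join the group means of a genotype and treatment, and the dotted lines only join the 2 control mornings. GI peaks in the groups of 7:24 and 8:40 pm and is low at 1:09 am, where CCL is still near log2 12.4. The 1:09 am arrays of GI are the lowest in WT, and in atm-1 they overlap the day 1 unirradiated arrays.

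Group means ran from log2 6.43 to 9.69 for GI, a 9.56-fold range, and from 5.59 to 13.0 for CCL, a 171-fold range. The range of CCL ranked 3 among the 13356 genes and that of GI ranked 361, against a median range over all genes of log2 0.80. The arrays of a group differed by a median of log2 0.09 for GI and 0.13 for CCL. The widest gaps were 0.52 for GI in WT 3 h after gamma and 0.36 for CCL in atm-1 24 h after gamma. In order of level, 9 of 21 neighbouring groups for GI and 10 of 21 for CCL differed beyond their spread, meaning that their arrays did not overlap and their means differed by more than the residual SD (0.13 for each gene). The other neighbours did not. For GI the 3 highest groups were WT gamma 12 h, WT HZE 6 h and atm-1 HZE 6 h. Neighbours among these 3 did not differ beyond their spread, while atm-1 HZE 6 h lay beyond it from the next group, WT HZE 3 h (a gap of log2 0.39). The lowest was WT HZE 12 h. For CCL the highest was WT HZE 3 h, which lay beyond the spread from the next group (a gap of log2 0.34). Next came 8 evening, afternoon and night groups from 12.7 to 12.2, among which no neighbours differed beyond their spread, and a gap of 1.00 separated them from atm-1 gamma 6 h. The lowest pair was WT gamma 24 h and WT gamma 1.5 h.

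Each irradiated group was compared with the unirradiated group of its genotype, with day 1 controls up to 12 h and day 2 controls at 24 h. The clock time differed from that of the control in every comparison, so each difference holds the treatment and the hour of sampling together. All differences come from 1 limma model of the 44 arrays, and a gene was called at a Benjamini-Hochberg adjusted p under 0.05 over the 13356 genes. Comparisons of a genotype share their control arrays. GI was called in 14 of the 18 comparisons (13 higher, 1 lower), and CCL in 15 (11 higher, 4 lower). The share of all genes called in each comparison is given beside it as the background.

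The gamma groups sampled 35 minutes before their controls had higher GI and lower CCL. Between 10:10 and 11:40 am in WT after gamma, CCL moved by log2 1.91 and GI by -0.98, so radiation and the hour of sampling cannot be told apart here. At 1.5 h, sampled 35 minutes before its control, WT had GI higher by log2 1.196 (SE 0.13, adjusted p 1.79e-08, 2.29-fold) and CCL lower by log2 -1.89 (SE 0.13, adjusted p 9.98e-13), where 17.1% of genes were called. In atm-1 at 1.5 h, GI was higher by 0.91 (adjusted p 1.04e-05) and CCL changed by -0.74 (adjusted p 0.000228), with 5.59% called. All 4 arrays of each comparison lay apart. At 3 h in WT, 55 minutes after the control, neither gene was called: GI differed by 0.22 (95% interval -0.04 to 0.48) and CCL by 0.03 (-0.23 to 0.29), with 16.4% called. The arrays of that GI group lie far apart, and without its replicate 1 the GI difference was 0.48 (adjusted p 0.0122).

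Later gamma groups, sampled hours after their controls, were high for both genes. At 6 h (2:55 pm) GI rose by log2 1.88 in WT and 1.92 in atm-1, and CCL by 3.49 and 3.66, where 25.8% and 23% of genes were called. At 12 h (8:40 pm) GI rose by 2.89 in WT (adjusted p 9.22e-18) and 2.45 in atm-1, and CCL by 4.88 (adjusted p 8.3e-23, 29.4-fold) and 5.16, with 28.3% and 23.5% called. The change of CCL at 12 h ranked 5 by size among the 13356 genes in WT, and that of GI ranked 46. The 24 h gamma groups, sampled 35 minutes before the day 2 control, resembled those of 1.5 h in direction. There GI was higher by log2 1.11 in WT (SE 0.13, adjusted p 2.3e-08) and 0.87 in atm-1 (adjusted p 2.06e-06). CCL was lower there by -3.67 in WT (SE 0.13, adjusted p 1.69e-19) and -3.42 in atm-1 (adjusted p 8.53e-19), with 31.6% and 27.5% called.

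After HZE all groups were sampled in the afternoon, evening or night, hours away from the morning controls. In WT GI rose by log2 1.60 at 1.5 h, 2.41 at 3 h and 2.88 at 6 h, and in atm-1 by 1.74 at 1.5 h and 2.94 at 6 h. CCL rose by 4.81, 5.53 and 5.05 in WT at the same times and by 5.09 and 4.66 in atm-1. The background was 41.6%, 45.6% and 31.6% of genes in WT and 36.8% and 23.3% in atm-1. The 5.53 at 3 h is a 46.2-fold difference and ranked 8 by size among all genes. No HZE group up to 6 h overlapped its control for either gene.

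The genes parted at 1:09 am, 12 h after HZE. CCL was still higher by log2 4.91 in WT and 4.89 in atm-1, while GI was lower in WT by -0.37 (SE 0.13, adjusted p 0.0257) and differed by -0.03 in atm-1 (95% interval -0.29 to 0.22). Here 29% and 18.3% of genes were called. The small GI call in WT ended without WT HZE 12 h replicate 2 (adjusted p 0.202), WT control day 1 replicate 1 (0.155) or its replicate 2 (0.0517). At 24 h after HZE (1:09 pm), neither gene was called against the day 2 control. GI differed by 0.33 in WT (95% interval 0.08 to 0.59) and -0.09 in atm-1 (-0.34 to 0.17), and CCL by 0.39 in WT (0.13 to 0.65) and 0.43 in atm-1 (0.17 to 0.69), with 3.59% and 1.55% called. CCL passed in atm-1 without atm-1 HZE 24 h replicate 2 (0.59, adjusted p 0.0333). Against the controls of both days together, CCL at 24 h was higher by 1.37 in WT and 1.68 in atm-1 and was called in both, and at gamma 3 h in WT it was lower by -0.95 (adjusted p 7.25e-08).

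**Figure D2:**
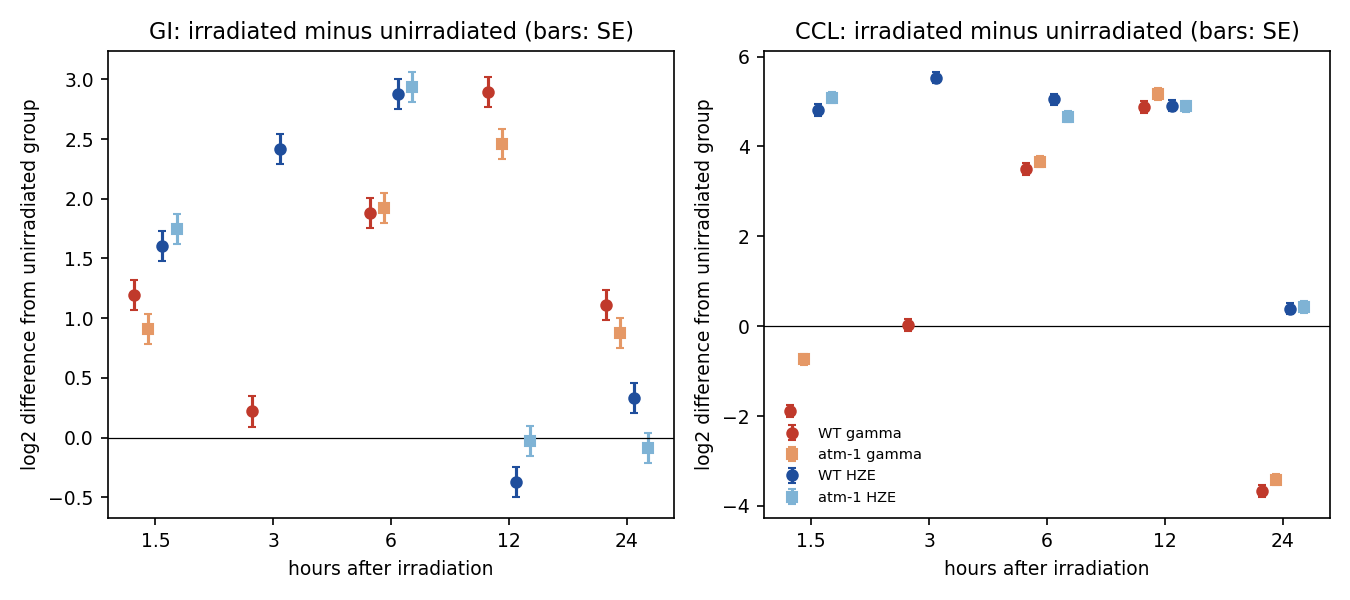
Log2 difference of each irradiated group from its unirradiated group for GI (left) and CCL (right) against hours after irradiation, on an evenly spaced axis. Points are estimates from 2 arrays against 2 and bars are the SE of the model. GI lies above 0 and CCL below 0 at 1.5 and 24 h after gamma. At 24 h after HZE neither gene was called. There CCL lies at 0.39 in WT and 0.43 in atm-1, and GI at 0.33 and -0.09.

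Pairs of groups about 1 day apart ask whether a level returned at nearly the same hour, since in each treatment the later group was sampled 90 minutes earlier by the clock. After gamma the levels of 24 h were close to those of 1.5 h. GI differed by log2 0.03 in WT (95% interval -0.22 to 0.29) and 0.33 in atm-1 (0.07 to 0.59, adjusted p 0.0926), and CCL by 0.17 in WT (-0.09 to 0.43) and -0.17 in atm-1 (-0.43 to 0.09). In these comparisons 12.1% and 11.1% of genes were called, and neither member was.

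Without radiation CCL rose from day 1 to day 2 by log2 1.95 in WT (SE 0.13, adjusted p 4.79e-12) and 2.50 in atm-1 (adjusted p 1.65e-14), where 20.1% and 17.8% of genes were called. GI differed by 0.12 in WT (95% interval -0.14 to 0.38) and was higher by 0.37 in atm-1 (adjusted p 0.0375), a call that ended without any 1 of its 4 arrays, atm-1 unirradiated day 1 replicate 1 or 2 or day 2 replicate 1 or 2 (adjusted p 0.121 to 0.166). The arrays of the control mornings did not overlap for CCL in either genotype.

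The change of CCL under gamma was larger against the day 2 control. The change at 24 h minus that at 1.5 h was log2 -1.78 in WT (SE 0.18, adjusted p 2.32e-08) and -2.68 in atm-1 (SE 0.18, adjusted p 3.32e-11), with 16.9% and 15.3% of genes called. For GI the same difference was -0.08 in WT (95% interval -0.45 to 0.28) and -0.04 in atm-1 (-0.40 to 0.32). The irradiated levels of CCL were nearly the same on both mornings, and the control level was not. After HZE both genes were lower at 24 h (1:09 pm) than at 1.5 h (2:39 pm). GI fell by -1.15 in WT (adjusted p 1.13e-08) and -1.46 in atm-1, and CCL by -2.47 and -2.15, with 32% and 27% called.

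**Figure D3:**
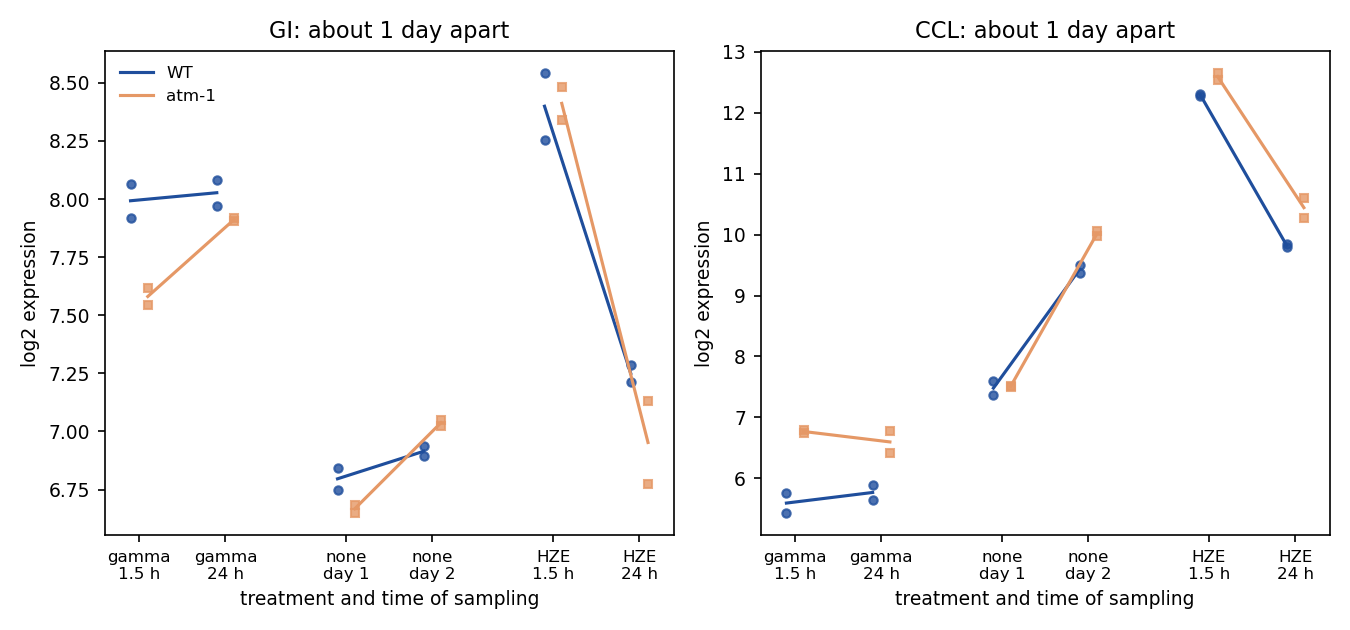
Log2 expression of GI (left) and CCL (right) in groups sampled about 1 day apart, for gamma 1.5 and 24 h, unirradiated day 1 and 2, and HZE 1.5 and 24 h. Points are single arrays, offset by genotype, and lines join group means. CCL rose between the control mornings, was low at both gamma times shown and was lower on day 2 after HZE.

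Steps between consecutive times show when each transcript moved, and neighbouring steps share the arrays of the time between them. In WT after gamma GI fell from 10:10 to 11:40 am by log2 -0.98 (adjusted p 5.03e-06), then rose by 1.67 to 2:55 pm and by 1.01 to 8:40 pm, and fell by -1.66 to the next morning. CCL rose in each of the 3 daytime steps, by 1.91, 3.47 and 1.38, and fell overnight by -6.59 (adjusted p 1.2e-26, 96.5-fold). GI and CCL thus moved in opposite directions in the first step and together in the other 3. In these steps 8.78%, 13.5%, 14.8% and 26% of genes were called.

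In atm-1 after gamma GI rose by log2 1.01 between 10:10 am and 2:55 pm and by 0.53 to 8:40 pm, and fell overnight by -1.21. CCL rose by 4.40 and 1.50 and fell by -6.07, with 23.6%, 18.2% and 22.5% of genes called. By size the overnight fall of CCL ranked 1 among the 13356 genes in atm-1 and 2 in WT. The evening rise of GI in atm-1 lost its call without atm-1 gamma 6 h replicate 1 (adjusted p 0.0579) or atm-1 gamma 12 h replicate 2 (0.0687).

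In WT after HZE GI rose by log2 0.81 to 4:09 pm and 0.47 to 7:24 pm, fell by -3.25 to 1:09 am (adjusted p 7.6e-18, 9.5-fold), and rose by 0.82 to 1:09 pm. CCL rose by 0.72 to 4:09 pm and fell by -0.48 to 7:24 pm, differed by -0.14 between 7:24 pm and 1:09 am (95% interval -0.40 to 0.12), and fell by -2.56 to 1:09 pm. The call of the evening fall of CCL ended without WT HZE 6 h replicate 1 (adjusted p 0.0569). The background was 11.9%, 40.5%, 20% and 21.1%. The largest GI step of this course, which ranked 1 by size among all genes, lay in an interval in which CCL was not called.

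In atm-1 after HZE GI rose by log2 1.19 from 2:39 to 7:24 pm, fell by -2.97 to 1:09 am, and differed by 0.32 from there to 1:09 pm (95% interval 0.06 to 0.57, adjusted p 0.0659, or 0.0139 without atm-1 HZE 24 h replicate 2). CCL fell by -0.42 in the first interval (adjusted p 0.00791), differed by 0.22 in the second (-0.04 to 0.48) and fell by -1.95 in the third, with 38.3%, 20.9% and 24.2% of genes called. The first of these CCL calls ended without atm-1 HZE 1.5 h replicate 1 (adjusted p 0.0824) or atm-1 HZE 6 h replicate 2 (0.0568). In both genotypes the night interval was therefore one in which GI fell and CCL was not called.

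Because the radiations were given at different hours, HZE and gamma groups sampled at nearly the same clock time were set against each other. The pair near 2:45 pm (HZE 1.5 h and gamma 6 h) lay 16 minutes apart, and the evening pair (HZE 6 h and gamma 12 h) 76 minutes apart. Time since irradiation and dose differ within each pair. In the afternoon pair CCL was higher after HZE by log2 1.32 in WT (SE 0.13, adjusted p 4.76e-10, 2.49-fold) and 1.43 in atm-1 (adjusted p 1e-10), where 39.4% and 39.9% of genes were called. GI was not called there, at -0.28 in WT (95% interval -0.54 to -0.02, adjusted p 0.0777) and -0.18 in atm-1 (-0.44 to 0.08, adjusted p 0.284). Both GI differences passed after cyclic loess (-0.31, adjusted p 0.0414, and -0.35, adjusted p 0.0226), and the WT one also without WT HZE 1.5 h replicate 2 (adjusted p 0.0269).

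In the evening pair the genotypes differed in what was called. WT showed -0.01 for GI (95% interval -0.27 to 0.25) and 0.17 for CCL (-0.09 to 0.43), with 22.8% of genes called. In atm-1 GI was higher after HZE by log2 0.48 (adjusted p 0.00527) and CCL lower by -0.50 (adjusted p 0.00434), with 19.6% called. The GI call ended without atm-1 gamma 12 h replicate 1 (0.0944) or atm-1 HZE 6 h replicate 1 (0.0855), and the CCL call without atm-1 gamma 12 h replicate 2 (0.121). That the pair differs between the genotypes was not tested.

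WT and atm-1 of the same treatment were sampled at the same hour, so this comparison holds no difference in clock time. It asks whether the level differs with the atm-1 mutation. Compared with atm-1, WT had lower CCL, by log2 -1.18 at gamma 1.5 h (SE 0.13, adjusted p 4.99e-08, 2.26-fold), -0.83 at gamma 24 h (adjusted p 7.82e-05) and -0.62 at HZE 24 h (adjusted p 0.00495). Unirradiated WT was also lower on day 2, by -0.58 (adjusted p 0.0173), and not called on day 1, at -0.03 (95% interval -0.29 to 0.23). The shares of genes called were 8.96%, 3.83%, 2.59%, 0.666% and 2.02%. The HZE 24 h call ended without WT HZE 24 h replicate 2 (0.0604) or atm-1 HZE 24 h replicate 1 (0.198), and the day 2 call without any 1 of its 4 arrays, WT or atm-1 unirradiated day 2 replicate 1 or 2 (0.062 to 0.182).

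At other times CCL was not called between the genotypes. It differed by log2 -0.19 at gamma 6 h, -0.31 at gamma 12 h, -0.30 at HZE 1.5 h, 0.36 at HZE 6 h and -0.01 at HZE 12 h, where 11.7%, 3.15%, 4.16%, 8.58% and 8.73% of genes were called. GI was higher in WT at gamma 1.5 h by 0.41 (SE 0.13, adjusted p 0.0347) and at gamma 12 h by 0.56 (SE 0.13, adjusted p 0.00632), and was not called in the other 8 conditions, where it ran from -0.21 to 0.30. The first GI call ended without WT gamma 1.5 h replicate 2 (0.305) or atm-1 gamma 1.5 h replicate 1 (0.178) or 2 (0.111), and the second without WT gamma 12 h replicate 1 (0.0947) or atm-1 gamma 12 h replicate 1 (0.125).

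**Figure D4:**
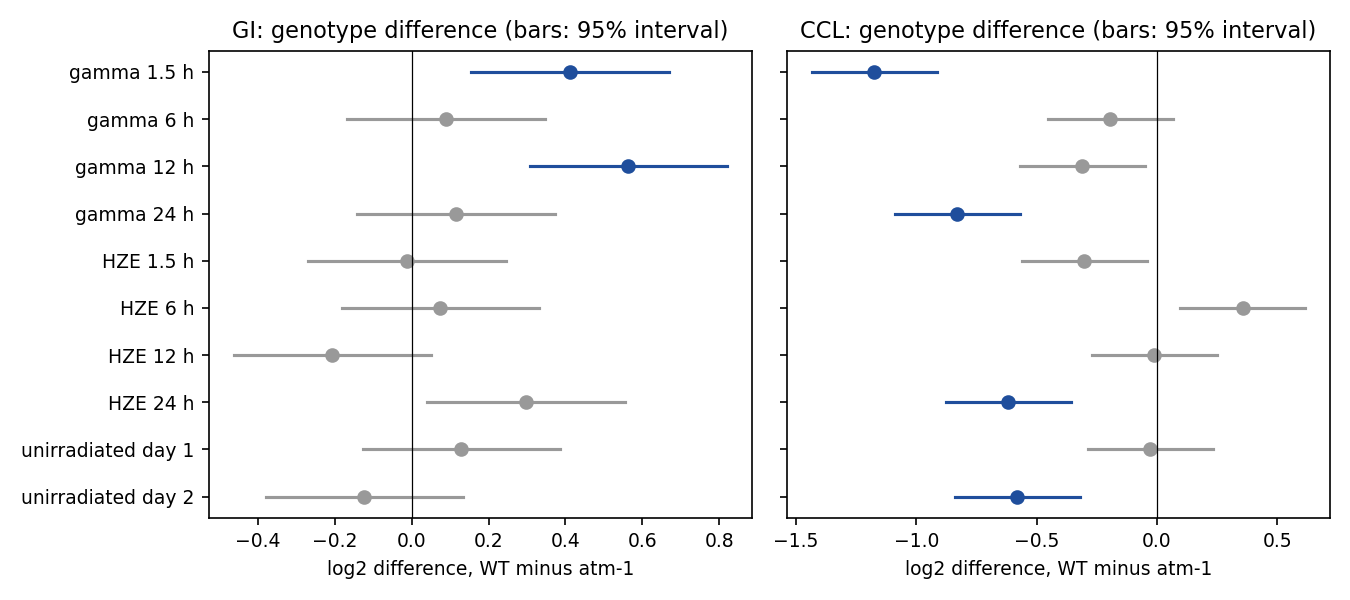
Log2 difference of WT minus atm-1 for GI (left) and CCL (right) in the 8 irradiated and 2 unirradiated conditions both genotypes share. Points are estimates from 2 arrays against 2, bars are 95% intervals of the model, and blue marks a call. CCL is furthest below 0 at 1.5 h after gamma.

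The change from the control was then compared between the genotypes. CCL fell more in WT than in atm-1 at gamma 1.5 h by log2 -1.15 (SE 0.18, adjusted p 6.95e-05), where 5.65% of genes were called. This was the only call of 16, 8 for each gene. At gamma 6, 12 and 24 h the CCL difference was -0.17, -0.28 and -0.25, and after HZE -0.27, 0.38, 0.02 and -0.04 at 1.5, 6, 12 and 24 h. For GI it was 0.28, -0.04, 0.43 and 0.24 after gamma and -0.14, -0.05, -0.34 and 0.42 after HZE, with adjusted p of 0.305 or more. The remaining backgrounds were 6.18%, 1.28% and 0.202% after gamma and 2.68%, 5.9%, 4.69% and 0.127% after HZE. With an SE of 0.18, the 95% interval of the GI difference at gamma 12 h still reached from 0.07 to 0.80. A miss of the threshold does not show that the genotypes responded alike. With controls of both days the CCL difference at HZE 6 h was 0.66 (adjusted p 0.007).

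The courses of both genes were only loosely related. Across the 22 group means their Pearson correlation was 0.44 and their Spearman correlation 0.40, a description over points that share arrays' normalisation and, for many, the clock hour. Leaving out the 2 groups farthest from the median of GI gave 0.35, and leaving out both HZE 12 h groups, chosen after their values were seen, gave 0.65. By that measure 31 of the other 13355 genes followed CCL at 0.9 or more, and 0 followed GI. Most like CCL were AT3G62550 (0.97), AT4G02370 (0.96), AT5G27280 (0.95), AT4G02340 (0.95) and AT1G02300 (0.94). AT3G62550 had a range of group means of log2 8.20, wider than CCL, and was also lowest in WT gamma 1.5 h. Most like GI were AT2G02880 (0.83), AT5G18760 (0.82), AT3G05130 (0.80), the cation exchanger gene CHX20 (0.79) and AT1G77840 (0.78). All 5 of these spanned less than GI, with ranges of log2 1.03 to 1.78.

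Few other clock-linked genes have a probe set with a single gene in the annotation used here. Of 54 listed genes of the core clock, the photoperiod pathway, clock outputs and unstable or dark-induced transcripts, 5 were measured: TIC (TIME FOR COFFEE, a clock regulator), SPY (SPINDLY, a sugar transferase that binds GI), AKINBETA1 (which encodes a beta subunit of the SnRK1 kinase), and the loci AT5G52660 and AT1G69570. Over the 18 comparisons with controls these 5 were called in 38 of 90 cases, 13 higher and 25 lower, or 42.2%, beside 23.9% for all genes. Against the controls of both days they were called in 50 cases, 12 higher and 38 lower, or 55.6%, beside 26.5% for all genes. Median changes of the list ran from log2 -0.73 (WT gamma 24 h) to 0.31 (WT HZE 1.5 h), and those of all genes from -0.05 to 0.02. A median of 5 genes varies more than a median of all genes, so these spans cannot show that the list moved more. AKINBETA1 (3 higher and 11 lower of 18) and AT1G69570 (1 higher and 10 lower) supplied most of the 38 calls. AT5G52660 had 8 higher and 0 lower, SPY 1 higher and 3 lower, and TIC 0 higher and 1 lower. The share above that of all genes thus came mainly from AKINBETA1 and AT1G69570 and does not describe the list as a whole.

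AKINBETA1 was called higher in 3 comparisons, all after HZE. It rose by log2 2.83 in WT and 2.60 in atm-1 at HZE 1.5 h and by 2.93 in WT at HZE 3 h. AKINBETA1 fell by -3.38 in WT and -3.12 in atm-1 at gamma 24 h, where CCL was also called lower. Both genes were also called lower in WT at gamma 1.5 h (AKINBETA1 -1.50). At gamma 6 and 12 h and HZE 6 h of both genotypes AKINBETA1 was called lower (-2.13 to -1.10) but CCL was called higher. The same was seen in WT at HZE 12 h (-0.69). In WT at gamma 3 h AKINBETA1 was called lower (-1.40) and CCL was not called. AT1G69570 fell by -2.34 to -1.80 in the evening and night groups (gamma 12 h, HZE 6 h and HZE 12 h of both genotypes). AT5G52660 was called higher in 8 comparisons, by at most 0.64. SPY was called in 4 and TIC in 1, all at under log2 0.75 in size.

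Another 5 clock and light genes were picked by reading the annotation after the levels of GI and CCL had been seen: COR27 (cold regulated and clock controlled), HYH (the homolog of the light-signalling factor HY5), FIO1 (FIONA1), LIP1 (LIGHT INSENSITIVE PERIOD1) and XCT (XAP5 CIRCADIAN TIMEKEEPER). These genes were called in 33 of 90 cases, 15 higher and 18 lower, or 36.7%, beside the 23.9% for all genes. HYH (3 higher and 11 lower of 18) and COR27 (9 higher) supplied most of these calls, so the share does not describe the 5 genes as a whole. COR27 was called in 9 comparisons, always higher. Its WT arrays read log2 8.26 and 8.21 at 8:40 pm and 7.63 and 7.31 at 1:09 am, against 3.59 to 3.84 in unirradiated WT. It rose by 4.58 in WT and 4.71 in atm-1 at gamma 12 h, and by 3.81 and 4.00 at HZE 12 h. The earlier HZE groups were also called higher, by 0.80 in WT and 0.50 in atm-1 at 1.5 h (2:39 pm). At HZE 3 h the rise was 2.09 in WT, and at HZE 6 h it was 1.95 in WT and 1.61 in atm-1. COR27 was not called at gamma 1.5, 3, 6 (2:55 pm) or 24 h, or at HZE 24 h.

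HYH was high after gamma at 10:10 am in WT and at 8:40 am in both genotypes, and low in the evening. Its WT arrays after gamma read log2 8.67 and 9.01 at 10:10 am and 8.68 and 9.03 at 8:40 am, above the 7.60 to 7.80 of unirradiated WT, and 4.14 and 4.64 at 8:40 pm. HYH rose by 1.14 and 1.15 in WT at gamma 1.5 and 24 h and by 1.66 in atm-1 at gamma 24 h, and was not called in atm-1 at gamma 1.5 h (0.50, adjusted p 0.0712) or in WT at gamma 3 h, 11:40 am (0.34, adjusted p 0.172). It fell by -3.31 in both genotypes at gamma 12 h and by -3.82 in WT at HZE 3 h. FIO1 was called higher in 3 and lower in 4 comparisons, LIP1 lower in 3, and XCT in 0 of 18.

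**Figure D5:**
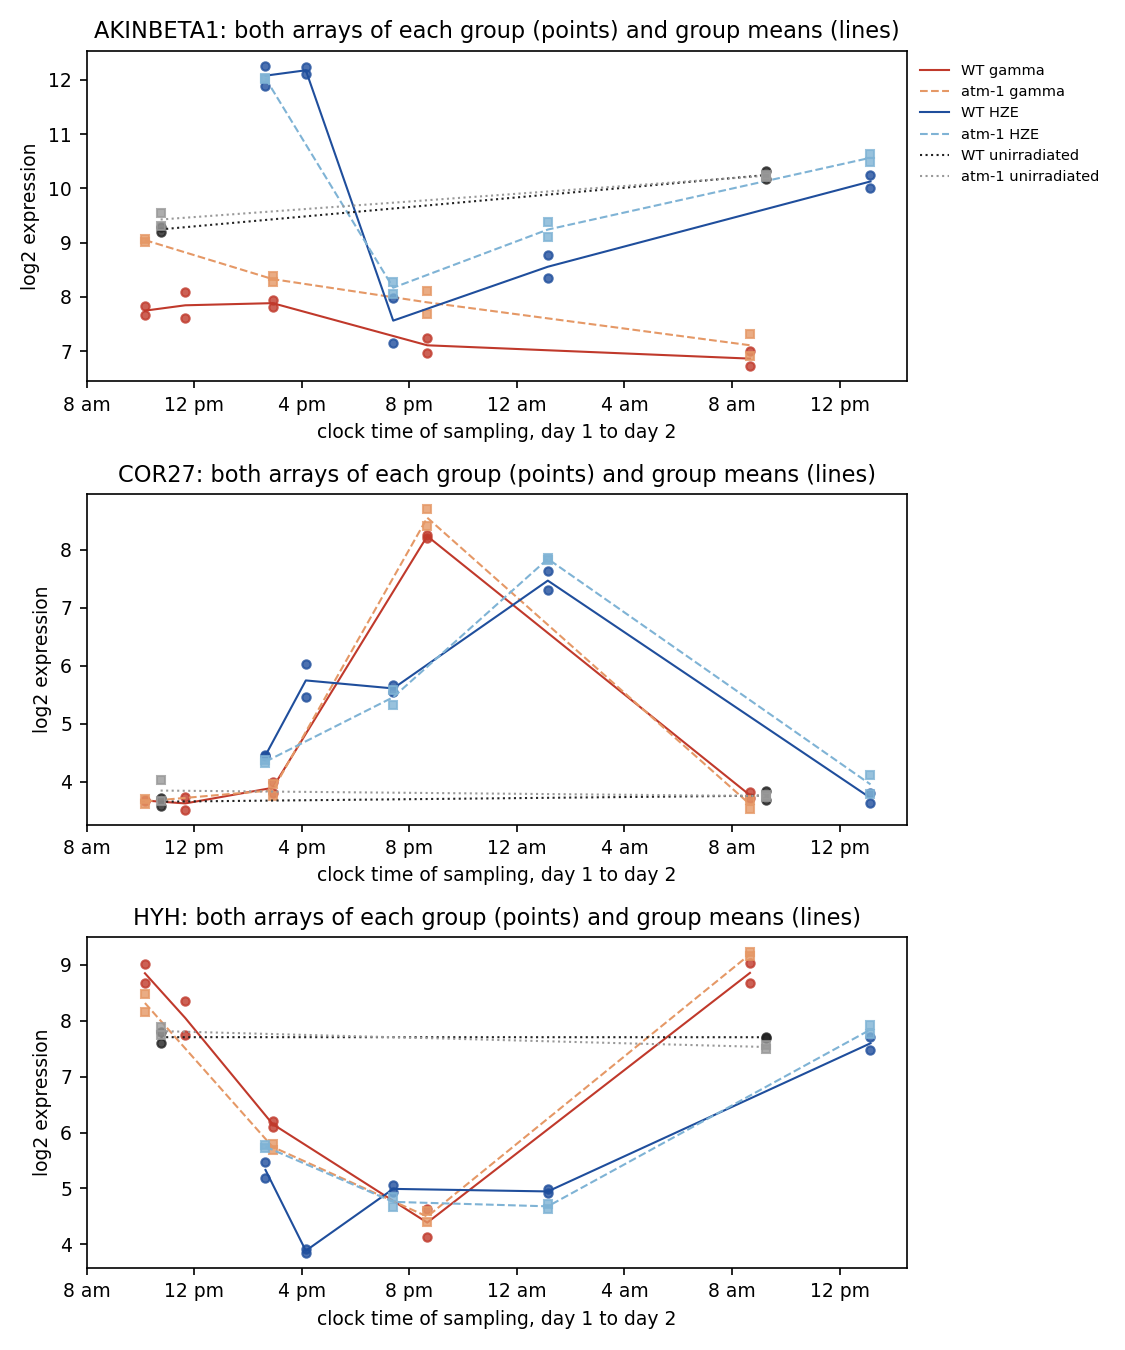
Log2 expression of AKINBETA1, COR27 and HYH against the clock time of sampling over both days. Points are single arrays, lines join the group means of a genotype and treatment, and dotted lines only join the control mornings. COR27 is highest at 8:40 pm and 1:09 am, and HYH is low from 2:39 pm to 1:09 am. The group means of AKINBETA1 are above log2 12 only in the HZE groups of 2:39 and 4:09 pm.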

How the data were processed

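Per the submitters' processing notes, the authors made the values with GCOS 1.2 and RMA in the affy package, and deposited them as log2 expression per probe set. The RMA settings, and which arrays it took jointly, are not given in the sources used here. The deposited log2 values were used without further normalisation. The table holds 22810 probe sets, of which 64 are array controls and were not tested. Among the other 22746, the platform annotation names 1 gene for 13513, several for 503 and none for 8730. Of the 13513, 13436 matched the gene table (TAIR10.1) by gene ID. The probe set with the highest mean stood for each of the 146 genes with several, which left 13356 genes.

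All 44 arrays, in the 22 groups of the labels, entered 1 group-means model in limma 3.58.1 (R 4.3.3; lmFit, contrasts.fit, eBayes; 22 residual and 7.82 prior degrees of freedom), with 62 comparisons, each adjusted by Benjamini-Hochberg over the 13356 genes. Calls were made where the adjusted p was below 0.05. Intervals are 95% intervals of the model. The number of arrays limits the precision. On simulated data for WT gamma 1.5 h against its control, 100 of 13356 genes were changed 1.5-fold and another 100 were changed 2-fold. The model called 71% of the genes changed 1.5-fold, 92% of those changed 2-fold, and 4 genes that had no change. The real comparison called 17.1% of genes, so these rates hold for the simulated setting only.

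The members, lists and comparisons were chosen with earlier results of these data known. Named genes are GI and CCL, up to 4 measured members of each of 4 list groups by range, and the 5 genes most correlated with each member. COR27, HYH, FIO1, LIP1 and XCT fall outside this rule and were named after the levels of GI and CCL had been seen. Alternatives were cyclic loess, quantile normalisation, an eBayes trend, a filter on dim genes, all probe sets, a replicate block, controls of both days, and leaving out each array. Sequences of the genes and promoters were not used here.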

Additional observations from a re-analysis of the deposited data

Results flagged for a closer look

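The change of CCL under gamma differed between groups in 3 tests. Between the genotypes, CCL at 1.5 h after gamma changed by log2 -1.15 more in WT than in atm-1 (SE 0.18, adjusted p 6.95e-05, limma), with WT arrays at 5.43 and 5.75 and atm-1 arrays at 6.79 and 6.74. Between times, the change of CCL at 24 h minus that at 1.5 h was log2 -1.78 in WT (SE 0.18, adjusted p 2.32e-08) and -2.68 in atm-1 (SE 0.18, adjusted p 3.32e-11). In both genotypes the unirradiated level rose from day 1 to day 2 (by 1.95 and 2.50), while the level after gamma was not called as different (0.17 and -0.17). Seedling age and clock hour moved with the control day, and their part was not tested.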

How the results depend on the processing

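An eBayes trend, leaving out the dimmest 25% of genes, and testing all probe sets that are not controls kept the direction and call of all 62 comparisons of GI and of CCL, and so did the replicate block (CCL at WT gamma 1.5 h -1.89 with the block, adjusted p 2.42e-12). Replicate differences of 231 group pairs correlated at -0.17 to 0.24 (median 0.01), and 40 exceeded 0.1, so no pairing common to all groups was seen. Pairing within some groups only, such as those of the HZE runs, was not tested. In the values below a difference is log2, "change" means the change from the control compared between WT and atm-1, and the cause of each shift was not tested. Cyclic loess made calls of CCL at HZE 24 h in WT (0.42) and atm-1 (0.47), of CCL in WT against atm-1 at HZE 6 h (0.38), and of GI at HZE 1.5 h against gamma 6 h in WT (-0.31) and atm-1 (-0.35). It turned the sign of differences that were never called: GI at atm-1 HZE 12 h (0.0090), GI in WT against atm-1 at gamma 6 h (-0.049), CCL in WT against atm-1 at HZE 12 h (0.038) and the GI gamma change at 24 h minus 1.5 h in atm-1 (0.0042). Quantile normalisation made the same GI calls at HZE 1.5 h against gamma 6 h (-0.35 and -0.36) and turned GI at gamma 6 h (-0.018) and CCL at HZE 12 h (0.052) between the genotypes. With controls of both days, CCL at WT gamma 3 h turned to -0.95 and was called. Calls also appeared at HZE 24 h for GI in WT (0.39), CCL in WT (1.37) and CCL in atm-1 (1.68), and for the CCL change at HZE 6 h (0.66). Uncalled signs turned for GI at atm-1 HZE 24 h (0.10), the GI change at gamma 6 h (0.086) and HZE 6 h (0.071), and the CCL change at gamma 6 h (0.11) and HZE 1.5 h (0.0017). The clock list then had 38 lower calls in place of 25 and 12 higher in place of 13, and 26.5% of all genes were called in place of 23.9%.

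Leaving out each array in turn altered a call or a sign in 30 results. For GI these gave 0.34 to 0.48 (WT against atm-1, gamma 1.5 h), 0.48 to 0.65 (gamma 12 h), -0.16 to 0.13 (HZE 1.5 h) and -0.010 to 0.16 (HZE 6 h), and for the change -0.087 to 0.0069 (gamma 6 h), -0.29 to 0.0029 (HZE 1.5 h) and -0.14 to 0.030 (HZE 6 h). Against controls GI gave -0.040 to 0.48 (WT gamma 3 h), -0.45 to -0.29 (WT HZE 12 h), -0.066 to 0.0023 (atm-1 HZE 12 h) and -0.26 to 0.094 (atm-1 HZE 24 h). Between times or radiations GI gave 0.45 to 0.62 (atm-1 gamma 12 against 6 h), 0.14 to 0.50 (atm-1 HZE 24 against 12 h), -0.038 to 0.11 (WT gamma 24 against 1.5 h), 0.35 to 0.39 (atm-1 control days), 0.40 to 0.57 and -0.083 to 0.066 (HZE 6 h against gamma 12 h, atm-1 and WT), and -0.42 to -0.14 (WT HZE 1.5 h against gamma 6 h). CCL gave -0.78 to -0.46 (WT against atm-1, HZE 24 h), -0.65 to -0.51 (control day 2), -0.15 to 0.090 (control day 1) and -0.095 to 0.071 (HZE 12 h), and for the change -0.10 to 0.14 (HZE 12 h) and -0.20 to 0.12 (HZE 24 h). Against controls CCL gave -0.091 to 0.15 (WT gamma 3 h) and 0.27 to 0.59 (atm-1 HZE 24 h). Between times or radiations CCL gave -0.35 to 0.0088 (atm-1 gamma 24 against 1.5 h), -0.48 to -0.36 (atm-1 HZE 6 against 1.5 h), -0.58 to -0.38 (WT HZE 6 against 3 h) and -0.63 to -0.37 (atm-1 HZE 6 h against gamma 12 h). The lone array left in a group was assumed to vary like the other groups. The number of arrays, 2 in each group, limits what could be called.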
